A study of Mus musculus with 36 samples.

Results

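The response of DBA mouse liver to acetaminophen was compared with that of 3 other strains. For each gene the change from 0 h to 6 h in DBA was taken on the log2 scale, and the mean of the same change in SJL, SMJ and C57 was subtracted from it. The comparison used the 24 arrays taken at 0 h and 6 h of the 36 in the series: 6 of DBA and 18 of the other strains. The 12 arrays at 3 h entered the estimate of spread and a check at that time. They also counted in setting the offset and in choosing the genes and probe sets tested. A positive difference means that a gene moved further up, or less far down, in DBA than in the other strains on average.

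Each array held total liver RNA of 1 mouse, with 3 mice for each strain and time. All mice had been fasted overnight for more than 16 h, and those at 3 h and 6 h had been given 300 mg/kg acetaminophen by injection into the abdomen. The series describes C57B6, DBA/2 and SmJ as sensitive to the resulting liver injury and SJL as resistant, and the arrays carry the strain labels C57, DBA, SMJ and SJL. The 0 h mice were taken before dosing, so a change over time is between different mice, and no mice given vehicle were sampled at 3 h or 6 h. The time since the last meal and the hour of the day therefore changed together with the time after the dose, and these cannot be told apart. Ages and sexes are not given in the labels, and 3 mice a group limit the precision of every value. A mouse is named here by its strain and number, as DBA113.

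Acetaminophen is mostly cleared by conjugation, but cytochrome P450 enzymes of pericentral hepatocytes turn a part of it into a reactive quinone imine that uses up glutathione and binds proteins. The cell answers through NRF2, the transcription factor that switches on antioxidant and glutathione genes, and through stress pathways that halt growth and protein synthesis. In a fasted liver a separate set of genes for glucose production and amino acid breakdown is kept high by glucagon, acting through cyclic AMP, and by glucocorticoids, so the level of such genes before a dose depends on the state of fasting.

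Tat, Igfbp1, Ppargc1a and Lpin1 of fasting metabolism and Cdkn1a, Trp53inp1 and Btg2 of growth arrest were among the genes with a more upward change in DBA. Osgin1 and Gsta2 of the NRF2 response, Slc40a1 of iron export and Wee1 of mitotic control were among those with a more downward one. Of 14057 genes tested, 77 had a more upward change in DBA (0.548%) and 21 a more downward one (0.149%), or 0.697% in either direction, at an adjusted p under 0.05 (limma, Benjamini-Hochberg). The difference reached at least 2-fold in 52 of the 77 and in 13 of the 21. At an unadjusted p under 0.05 the counts were 563 and 791. Across all genes tested the median difference was -0.05, against 1.27 over the 77 and -1.27 over the 21. All 98 called genes had a DBA change outside the range of the 3 other strains' changes, as did 42.5% of all genes tested.

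**Figure D1:**
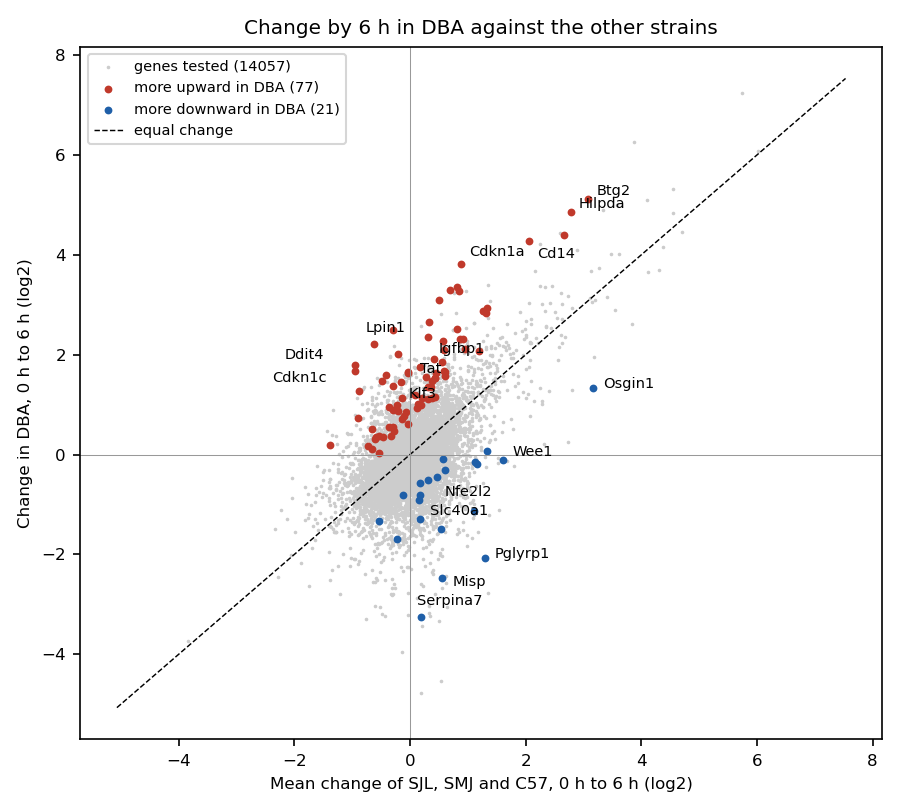
Change from 0 h to 6 h in DBA (vertical) against the mean change of SJL, SMJ and C57 (horizontal), both on the log2 scale, with 1 point per gene tested and the called genes in colour. The 77 red genes lie above the dashed line of equal change and the 21 blue genes below it; Btg2, Hilpda and Cd14 are far up on both axes, while Lpin1, Ddit4 and Cdkn1c are up in DBA and down in the other strains.

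The plot of changes shows how the call was reached in each case. Of the 77 genes, 68 rose in DBA, 9 did not pass the threshold there and none fell. In the mean of the other strains 30 of the 77 rose, 28 did not pass and 19 fell. In 10 genes DBA rose while the other strains fell, and in 9 the other strains fell while DBA did not pass. Of the 21 genes, 12 fell in DBA, 8 did not pass and 1, Osgin1, rose by less than elsewhere. The mean of the other strains rests on 9 mice at each time and that of DBA on 3, so the DBA change is the less precise. Over all genes DBA had 678 rises (4.82%) and 1089 falls (7.75%), against 1538 (10.9%) and 2236 (15.9%) for the mean of the others. SMJ, also with 3 mice at each time, had 1236 rises (8.79%) and 1773 falls (12.6%). The part of group size in these counts was not tested.

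In many called genes DBA differed from the other strains before the dose. By construction the difference in change equals the gap between DBA and the other strains at 6 h minus that gap at 0 h, so each called gene can be described by these levels. The genes were called on this same difference, so gaps at 0 h or 6 h in more of them than over all genes are built into the choice. The shares below are a description and not separate evidence. The DBA level was below the other strains at 0 h in 51 of the 77 genes (5.63% of all genes tested) and above them at 6 h in 38 (5.64%). In 38 genes only the 0 h level passed, in 26 only the 6 h level and in 12 both; Lpin1 was lower in DBA at both times. The gap at 0 h was the wider one in 47 of the 77. All 3 DBA mice lay below the 9 mice of the other strains at 0 h in 34 of the 77 genes (3.39% of all genes), and above them at 6 h in 23 (2.97%). For the 21 genes with a more downward change the 6 h level carried more of the gap: DBA was lower at 6 h in 15 (7.56% of all genes) and higher at 0 h in 7 (4.77%). All 3 DBA mice lay below the other 9 at 6 h in 9 of the 21 (3.88% of all genes).

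**Figure D2:**
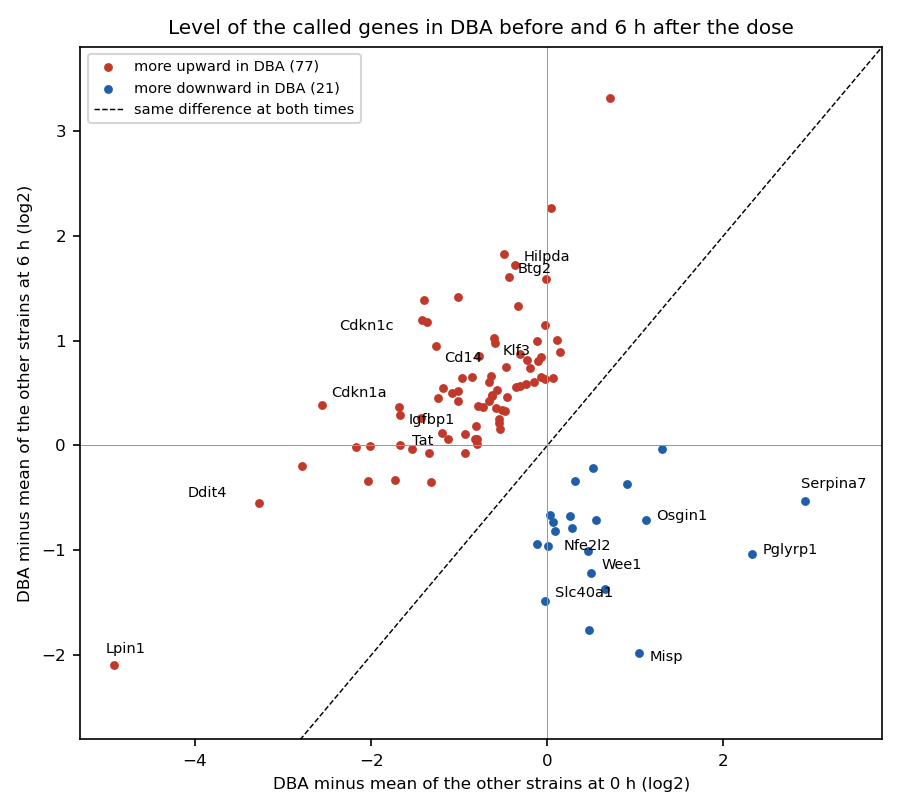
Level of the 98 called genes in DBA minus that of the other strains, averaged, at 0 h (horizontal) and at 6 h (vertical), on the log2 scale, with 1 point per gene. Red genes spread to the left of the vertical zero line, with a median of -0.66 at 0 h and 0.52 at 6 h, and blue genes spread below the horizontal one, with medians of 0.48 and -0.78; Lpin1 stands alone at the lower left.

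The 77 genes were chosen from these same mice, so their levels by mouse are a description. Set against the other strains' mean for the same time, the median level of the 77 genes was -0.77 in DBA113, -0.48 in DBA114 and -0.79 in DBA115 at 0 h. At 6 h it was 0.48 in DBA166, 0.55 in DBA168 and 0.50 in DBA169, while the medians over all genes stayed between -0.04 and 0.03 in these 6 mice. Measured the same way against the 3 strains other than their own, the C57 mice stood highest at 0 h, at 0.49, 0.41 and 0.64. Without DBA113 the counts were 22 and 6 in place of 77 and 21, without DBA115 they were 24 and 5, without DBA168 33 and 16, and without DBA169 28 and 15. Without DBA114 they were 84 and 25, and without DBA166 66 and 34.

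Genes of the fasting liver gave several calls. Of 15 genes of glucose production and use tested, Igfbp1, Ppargc1a and Tat were more upward in DBA (0.548% of all genes tested). None was more downward (0.149% of all genes), and the list median was 0.30, against -0.05 over all genes. The lists were chosen with earlier results of these data known. Of 18 genes of the urea cycle and amino acid breakdown, Tat and Got1 were called and the median was 0.03. Tat, which starts the breakdown of tyrosine and is a classical target of glucocorticoids and cyclic AMP, read 2777, 3254 and 2998 in DBA113, DBA114 and DBA115 at 0 h. In the 9 other mice at 0 h it had a lowest, median and highest signal of 7578, 9654 and 13850. At 6 h it read 8016, 10137 and 10210 in DBA, against 7308, 9494 and 12200 in the others. The DBA livers were thus the low ones before the dose, with no overlap, and lay among the others 6 h after it. On the log2 scale Tat rose by 1.64 in DBA (adjusted p = 2.13e-06), the mean change elsewhere was -0.04 (adjusted p = 0.848), and the difference of 1.68 ± 0.23 (SE) had an adjusted p of 0.000272.

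Got1, the cytosolic aspartate aminotransferase, followed the same course. Its signals were 1416, 1784 and 1425 in DBA at 0 h and 2939, 6920 and 5657 at 6 h, while the other mice ran from 3686 to 9855 with a median of 6488 at 0 h and from 3479 to 9581 with a median of 5996 at 6 h. All 3 DBA mice were below the other 9 before the dose and overlapped them afterwards. The difference was 1.69 ± 0.38 (adjusted p = 0.0336), and the call was kept in 16 of the 24 fits that left out 1 array, with a highest adjusted p of 0.155 without DBA168.

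Igfbp1, a fasting-induced binding protein for insulin-like growth factors that the liver secretes, was more variable among the undosed DBA mice. It read 1915, 7669 and 3086 at 0 h and 16775, 19931 and 18433 at 6 h. The other strains spanned 6266 to 16186 at 0 h, with a median of 12247, and 9566 to 23632 at 6 h, with a median of 15369. DBA114 lay within the range of the other strains at 0 h and the other two DBA mice below it. The difference was 2.05 ± 0.40 (adjusted p = 0.0117). It lost its call without DBA113 (1.6, adjusted p = 0.0818) and without DBA115 (1.95, adjusted p = 0.0616), as well as in a fit to the 24 arrays alone (adjusted p = 0.0522).

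Ppargc1a encodes PGC-1alpha, the coactivator that fasting signals use to raise glucose production, and here the other strains moved. Its signals in DBA were 88.8, 95.6 and 118 at 0 h and 126, 189 and 198 at 6 h. Those of the other 9 mice had a lowest, median and highest of 109, 171 and 336 at 0 h, and a lowest of 69.1 and a median of 91.9 at 6 h. All 3 DBA mice were above the other 9 at 6 h, and the groups overlapped at 0 h. The change in DBA was 0.73 (adjusted p = 0.128), the other strains fell by 0.90 (adjusted p = 0.000358), and the difference was 1.63 ± 0.36 (adjusted p = 0.0274). Another 4 probe sets for this gene gave 1.5, 2.07, 2.67 and 2.36. The call was lost without any 1 of 5 DBA arrays, with values from 1.52 to 1.75 and adjusted p values from 0.054 without DBA114 to 0.106 without DBA113. Among the list members that did not pass, G6pc, the last enzyme of glucose output, had a difference of 1.37 (adjusted p = 0.23), and Pck1, the enzyme of the first committed step, had one of 0.29.

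Lipid genes gave 1 call in each of 2 lists. Lpin1, a phosphatidate phosphatase that is also a partner of PGC-1alpha and is induced by fasting, had one of the largest differences of the 77 genes and a wide gap in level. Its signals in DBA were 73.2, 82.9 and 70.6 at 0 h and 299, 300 and 514 at 6 h. In the other strains they ran from 851 to 8545 with a median of 1588 at 0 h, and from 651 to 4486 with a median of 1061 at 6 h. Every DBA mouse was below every other mouse at both times, so the rise in DBA narrowed the gap without closing it. On the log2 scale Lpin1 rose by 2.21 in DBA (adjusted p = 3.07e-05), fell by 0.62 in the mean of the others (adjusted p = 0.0141) and differed by 2.83 ± 0.37 (adjusted p = 0.000272). A separate Lpin1 probe set gave 2.96 ± 0.41, with a gap of -4.76 at 0 h and -1.80 at 6 h. Angptl4, a secreted inhibitor of lipoprotein lipase and a target of PPARA, differed by 0.87 ± 0.19 (adjusted p = 0.0253). Its probe set is marked as able to bind related transcripts; a fit that passed over such sets used another and gave 1.67 with an adjusted p of 0.368, and the call was also lost without any 1 of 5 DBA arrays (adjusted p from 0.0511 without DBA169 to 0.142 without DBA113).

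**Figure D3:**
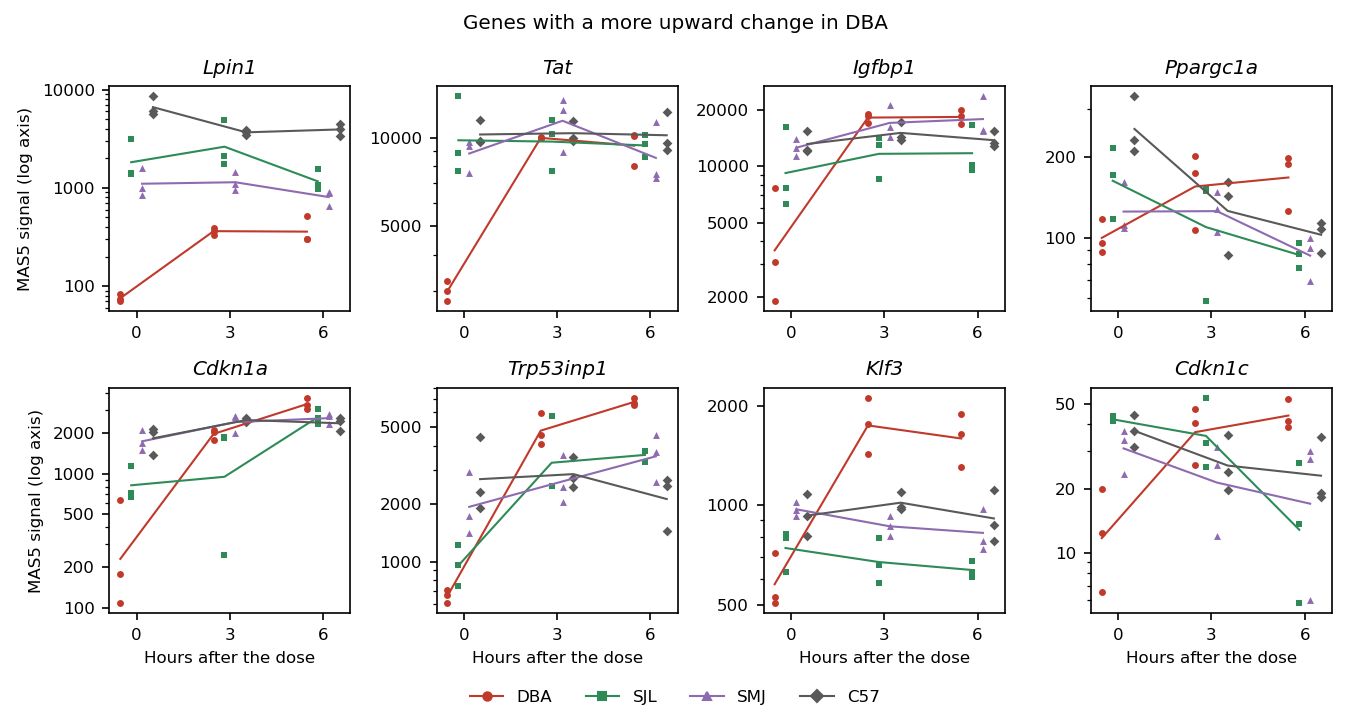
MAS5 signal by mouse (points, log axis) at 0 h, 3 h and 6 h for 8 genes with a more upward change in DBA; lines join the geometric mean of the 3 mice of each strain. DBA starts below the other strains at 0 h in Lpin1, Tat, Cdkn1a, Trp53inp1 and Cdkn1c, and at 6 h it is above them in Ppargc1a, Cdkn1a, Trp53inp1, Klf3 and Cdkn1c.

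Genes that restrain growth were called in both directions. Of 17 targets of p53 tested, Cdkn1a, Trp53inp1 and Btg2 were more upward in DBA (0.548% of all genes tested). Plk2 was more downward (0.149% of all genes), and the list median was 0.01. Cdkn1a encodes p21, an inhibitor of cyclin-dependent kinases that stops the cell cycle, and had the largest difference of the 77 genes. It read 179, 638 and 109 in DBA at 0 h and 3658, 3033 and 3235 at 6 h. The other mice read 670 to 2158 with a median of 1488 at 0 h, and 2090 to 3016 with a median of 2586 at 6 h. All 3 DBA mice were below the other 9 at 0 h and above them at 6 h, by a narrow margin at 6 h, where the mean gap of 0.38 did not pass (adjusted p = 0.63). Cdkn1a rose by 3.81 on the log2 scale in DBA (adjusted p = 1.03e-05), and the other strains rose by 0.88 (adjusted p = 0.0279). The difference of 2.93 ± 0.59 (adjusted p = 0.0148) was matched by 2.37 ± 0.40 on its other probe set, and it lost its call without DBA113 (2.75, adjusted p = 0.0821), without DBA115 (2.40, adjusted p = 0.10) and against SJL and SMJ alone (2.68, adjusted p = 0.0617).

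Trp53inp1, which assists p53 and autophagy, had a tighter undosed group. Its DBA signals were 609, 713 and 666 at 0 h and 7104, 6528 and 6724 at 6 h, and those of the other strains ran from 741 to 4443 (median 1728) and from 1440 to 4555 (median 3289). DBA was the lowest strain at the start and the highest at the end, without overlap at either time. The difference of 2.54 ± 0.38 (adjusted p = 0.000768) passed against SMJ and C57 taken singly, at 2.48 (adjusted p = 0.015) and 3.70 (adjusted p = 4.7e-05), and was 1.44 against SJL (adjusted p = 0.26). It kept its call in each of the 24 fits that left out 1 array and under each of 13 other settings.

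Btg2, an immediate early gene that slows cell division, had the largest rise in DBA among the called genes, at 34.8-fold. Its signals there were 172, 195 and 156 at 0 h and 5538, 6922 and 6031 at 6 h. SMJ and C57 reached 5360 to 6083 at 6 h, within the DBA range or just below it, while SJL reached only 215, 228 and 282 from 44.6, 46.7 and 51.6. SJL was thus the strain that stood apart on this probe set at both times. The difference of 2.04 ± 0.41 (adjusted p = 0.0148) passed against SJL alone (2.85, adjusted p = 0.013) but not against SMJ (1.71, adjusted p = 0.12) or C57 (1.56, adjusted p = 0.11). The undosed SMJ mice were uneven, with SMJ56 at 1447, SMJ57 at 325 and SMJ58 at 304. On the other Btg2 probe set SJL read 79.3 to 135 at 0 h and 895 to 1406 at 6 h, nearer to the other strains, and the difference was 1.40 ± 0.42. The call was lost against SMJ and C57 alone (1.63, adjusted p = 0.0689), and without DBA113, DBA115 or DBA168 (adjusted p = 0.0625, 0.073 and 0.0567).

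Cdkn1c and Ddit4 were 2 of the 10 genes that rose in DBA and fell elsewhere. Cdkn1c encodes p57, a relative of p21, and was weakly expressed. Its DBA signals were 6.53, 19.8 and 12.4 at 0 h and 52.9, 38.8 and 41.6 at 6 h, against 23.4 to 44.4 and 5.81 to 34.9 in the other strains. The strains changed places without overlap at either time, with a difference of 2.62 ± 0.51 (adjusted p = 0.0122) that lost its call without DBA113 (2.28, adjusted p = 0.0826). Ddit4 encodes REDD1, which restrains the growth kinase mTORC1 and is induced by stress, fasting and glucocorticoids. It read 74.1, 85.8 and 58 in DBA at 0 h against 174 to 3010 in the others, and 227, 283 and 258 at 6 h against 234 to 739. The C57 mice, at 1715, 1029 and 3010, were among the highest before the dose, and the difference was 4.15 against C57 (adjusted p = 0.0014) but 1.94 against SJL (adjusted p = 0.33) and 2.11 against SMJ (adjusted p = 0.18). Its overall difference of 2.73 ± 0.57 (adjusted p = 0.0197) lost the call without DBA113, DBA115, DBA168 or DBA169, with adjusted p values from 0.0553 to 0.092.

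Other stress genes gave few calls. Of 23 genes of the integrated and endoplasmic reticulum stress response, Ddit4 and Herpud1 were more upward in DBA (0.548% of all genes tested). In this list 20 had a positive difference, and the median was 0.32, against -0.05 over all genes. Herpud1, which helps to degrade misfolded proteins of the endoplasmic reticulum, rose by 1.19 in DBA (adjusted p = 0.000811) and differed by 1.10 ± 0.26 (adjusted p = 0.0458), a call kept in 6 of the 24 fits without 1 array. The central regulators Atf4 and Ddit3 did not pass, at 0.22 and 0.48. Of 25 immediate early genes only Btg2 was called, and the median was 0.35. In DBA 22 of them rose (4.82% of all genes tested), as did 22 in the mean of the other strains (10.9% of all genes). Atf3, induced by many kinds of stress, had a difference of 1.49 ± 0.69 (adjusted p = 0.478) on changes of 7.23 in DBA and 7.07, 4.53 and 5.64 in SJL, SMJ and C57. Among the undosed SMJ mice, SMJ56 read 953 for Atf3, against 98.2 in SMJ57 and 141 in SMJ58. Heat shock proteins gave no call among 19 tested, and Hspa1a had a difference of -0.22 ± 1.03 (adjusted p = 0.972) on changes of 4.16 in DBA and 7.06, 4.31 and 1.79 in SJL, SMJ and C57. For Hspa1a too SMJ56 was the highest undosed SMJ mouse, at 649 against 156 in SMJ57 and 130 in SMJ58.

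Per1 was the 1 gene called among 17 of the circadian clock. It is a repressor of the clock that fasting hormones also induce. Its DBA signals at 0 h were 4.35, 104 and 41.0, all below the 123 to 338 of the other strains, and at 6 h they were 252, 297 and 269, within their 202 to 422. The difference of 2.59 ± 0.61 (adjusted p = 0.0421) leant on the lowest array: without DBA113 it was 1.5 (adjusted p = 0.144), and the call held in 3 of the 24 fits without 1 array. Ciart, another clock repressor, had a difference of 2.32 (adjusted p = 0.10), whereas Per2 had one of 0.62 and Dbp one of -1.08, neither past the threshold.

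Genes of inflammation gave single calls. Cd14, the coreceptor for bacterial lipopolysaccharide, was the 1 gene called of 14 Kupffer cell and macrophage markers. Of these 12 had a positive difference, and the list median was 0.30, against -0.05 over all genes. Cd14 read 71.6, 84.4 and 50.5 in DBA at 0 h and 1337, 1958 and 947 at 6 h. The signals elsewhere were 97.8 to 272 and 376 to 1323. DBA was lowest before the dose and overlapped the others after it. On the log2 scale it rose by 4.27 in DBA and by 2.05 in the other strains, and the difference was 2.22 ± 0.51 (adjusted p = 0.0401), a call kept in 7 of the 24 fits without 1 array. Vcam1, an adhesion molecule for leukocytes, differed by 1.51 ± 0.35 (adjusted p = 0.0401), kept in 7 of 24, and Cebpb, a transcription factor of the acute phase and of gluconeogenesis, by 1.05 ± 0.22 (adjusted p = 0.0197), kept in 20 of 24. The summed signal of the 14 macrophage markers was 5241 to 5550 in DBA at 0 h and 7348 to 8665 at 6 h; it was 7927 to 9433 and 8148 to 9759 in SJL, 4587 to 5772 and 6192 to 7056 in SMJ, and 6892 to 7707 and 8749 to 9579 in C57. Cd14 is itself in this sum: the mean sum in DBA was 5356 at 0 h and 8009 at 6 h with it, and 5287 and 6595 without it. Without Cd14 the mean sum went from 8417 to 7997 in SJL, from 4907 to 5572 in SMJ and from 7132 to 8691 in C57. In DBA 12 of the 14 markers had a higher mean at 6 h than at 0 h, Vsig4 among them at 563 and 764, and 2 had a lower one, Clec4f at 617 and 555 and Lyz2 at 556 and 527. This was not particular to DBA: most markers were higher at 6 h in C57 too, with Timd4 and Adgre1 lower there. In bulk liver RNA the number of cells of a type and the RNA per cell cannot be told apart, and the part of these markers in the Cd14 result was not tested.

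Several of the 77 genes kept their call under every change of processing. The fits that left out 1 of the 24 arrays in turn and the 13 other settings all kept 14 of the 98 called genes: Lpin1, Trp53inp1, C9orf72, Tmc7, Ifrd1, Rasgef1b, Tat, Klf3, 1700017B05Rik, Glce, Uvrag, Rapgef1 and Pitpnb, and Slc40a1 among those moving down. Klf3, a repressor of the Krüppel-like family chosen here after its values were seen, had the smallest adjusted p of all genes, 0.000158. It read 527, 720 and 507 in DBA at 0 h and 1307, 1642 and 1886 at 6 h, while the other strains stayed within 628 to 1080 and 608 to 1116. DBA overlapped the others before the dose and exceeded all of them at 6 h. The difference was 1.62 ± 0.20, with 1.68, 1.70 and 1.49 against SJL, SMJ and C57 taken singly, each past the threshold, and the 6 other Klf3 probe sets gave 0.72 to 1.73.

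C9orf72, which takes part in autophagy and endosomal traffic, and Gprc5a, an orphan receptor induced by retinoic acid, differed mainly at 6 h. C9orf72 read 1166, 1440 and 1406 in DBA at 6 h against 173 to 510 in the other strains, with overlapping levels at 0 h, and differed by 2.31 ± 0.37 (adjusted p = 0.00157). Gprc5a read 582, 403 and 426 against 9.14 to 153, and differed by 2.61 ± 0.55 (adjusted p = 0.0203); it lost its call without DBA113, DBA115, DBA166 or DBA169 (adjusted p from 0.0505 to 0.135). Ifrd1, an immediate early regulator of differentiation also chosen after its values were seen, showed the opposite arrangement. Its mean signal was 163 ± 6.09 (SD, n = 3) in DBA at 0 h, where no mouse reached the 265 to 544 of the others, and it read 3926, 3215 and 3380 at 6 h, within the 998 to 4470 of the others, a difference of 1.73 ± 0.23 (adjusted p = 0.000272).

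The promoters of the called genes were searched for 4 short motifs chosen after the values were seen, because several of the genes are known targets of fasting and stress signals. The search covered the 250 bases before each start in RefSeq's GRCm38.p6 annotation, on both strands. Of the 77 genes 62 had a promoter in the table, with 95 promoters in all. The full cyclic AMP response element TGACGTCA, the site read by CREB, was in 5 of these genes (8.06%), against 1.77% of all 27025 genes in the table; counted by promoter the shares were 5.26% and 1.55%. The E-box CACGTG was in 6 of the 62 (9.68%, against 6.86% of all genes), the AP-1 site TGACTCA in 3 (4.84%, against 5.16%) and the forkhead site GTAAACA in 0 (against 3.54%). The 17 matched genes with a more downward change held TGACGTCA in 1, Plk2. The shares for all genes cover the whole promoter table and not the 14057 genes tested, so they are not from a like set. A match describes these letters only.

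The 3 promoters printed here carry TGACGTCA, shown in capitals, in genes with a large rise in DBA or a call against each strain. Each is written from its 5′ end to the base before the start of transcription, on the strand of the gene. Tmc7 (chr7:118584687-118584936, minus strand), a member of the transmembrane channel-like family, was called against each of the 3 strains taken singly, at 1.95, 1.67 and 2.83 for SJL, SMJ and C57. Btg2 (chr1:134079156-134079405, minus strand) had the largest rise in DBA among the called genes. Slc25a25 (chr2:32424067-32424316, minus strand), a mitochondrial carrier of ATP and phosphate chosen after its values were seen, read 905, 885 and 929 in DBA at 0 h and 2999, 3174 and 3766 at 6 h, and differed by 1.30 ± 0.28 (adjusted p = 0.0259). That call was lost without DBA113, DBA115, DBA168 or DBA169 (highest adjusted p = 0.092), and against SMJ and C57 or SJL and C57 alone (highest adjusted p = 0.131, lowest difference 0.99). The element begins 49 bases before the start in Tmc7 and 150 in Slc25a25. The remaining 2 genes with it were Ell2 and Retreg1.
Tmc7: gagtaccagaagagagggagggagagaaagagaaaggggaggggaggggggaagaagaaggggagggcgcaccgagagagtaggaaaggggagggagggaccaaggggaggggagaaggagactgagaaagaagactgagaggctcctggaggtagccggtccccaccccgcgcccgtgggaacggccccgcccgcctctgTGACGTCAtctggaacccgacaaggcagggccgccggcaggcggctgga
Btg2: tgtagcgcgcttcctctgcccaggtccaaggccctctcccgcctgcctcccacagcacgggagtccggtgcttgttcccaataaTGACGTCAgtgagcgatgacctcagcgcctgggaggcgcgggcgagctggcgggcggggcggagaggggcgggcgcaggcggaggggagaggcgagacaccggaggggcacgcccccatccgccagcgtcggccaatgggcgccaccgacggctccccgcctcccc
Slc25a25: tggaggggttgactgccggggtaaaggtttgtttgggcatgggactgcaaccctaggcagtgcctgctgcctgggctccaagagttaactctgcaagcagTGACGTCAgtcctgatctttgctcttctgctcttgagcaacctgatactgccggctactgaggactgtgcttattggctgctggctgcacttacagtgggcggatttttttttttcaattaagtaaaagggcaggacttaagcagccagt

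Of 29 NRF2 targets tested, none was more upward in DBA (0.548% of all genes tested), and Osgin1 and Gsta2 were more downward (0.149%). A positive difference was seen in 5, and the median was -0.38 against -0.05 over all genes. At an unadjusted p under 0.05 the list held 2 genes more upward and 12 more downward, of 29, against 4.01% and 5.63% of all genes. In DBA 9 of the 29 rose (4.82% of all genes tested) and in the mean of the other strains 22 (10.9% of all genes). None fell in either, and the median change was 0.19 in DBA against 0.50, 0.85 and 0.56 in SJL, SMJ and C57. Hmox1, which degrades heme, and Gclc, which makes the first step of glutathione synthesis, did not pass and pointed in opposite directions, at 1.41 ± 0.59 (adjusted p = 0.417) and -0.71 ± 0.26 (adjusted p = 0.314). Hmox1 was high in 1 undosed SMJ mouse, SMJ56, at 5481 against 447 in SMJ57 and 561 in SMJ58.

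Osgin1, an oxidative stress induced growth inhibitor, read 1307, 2604 and 1501 in DBA at 0 h and 4276, 5269 and 3703 at 6 h. The other mice, by lowest, median and highest, went from 361, 698 and 2910 to 4807, 7281 and 8950. The highest undosed value was that of SMJ56, while SMJ57 and SMJ58 read 936 and 1400. DBA began among the higher mice and ended among the lower ones, with DBA168 inside the range of the others at 6 h. On the log2 scale it rose by 1.34 in DBA (adjusted p = 0.00456) and by 3.17 elsewhere (adjusted p = 1.32e-12), a difference of -1.83 ± 0.36 (adjusted p = 0.0122). The value was -2.16 against SJL (adjusted p = 0.025), -0.85 against SMJ (adjusted p = 0.44) and -2.46 against C57 (adjusted p = 0.0024). Without DBA169 it was -1.71 (adjusted p = 0.0538), and against SJL and SMJ alone -1.51 (adjusted p = 0.0893).

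Gsta2, a glutathione transferase, was high in DBA before the dose. It read 1570, 1426 and 2752 at 0 h, all above the 385 to 1415 of the other strains, and 1725, 2194 and 1119 at 6 h, within their 1041 to 4303. The difference of -1.34 ± 0.31 (adjusted p = 0.0401) arose on a rise of 1.16 elsewhere and a DBA change of -0.18 (adjusted p = 0.742), and the call was kept in 7 of the 24 fits without 1 array. Near-identical glutathione transferase genes can share probes, so the value may include relatives of Gsta2. Nfe2l2, which encodes NRF2 itself and was chosen after its values were seen, read 717, 646 and 671 in DBA at 0 h and 556, 485 and 457 at 6 h. The other strains spanned 340 to 1111 at 0 h and 542 to 1974 at 6 h, with SMJ the highest at 1974, 1748 and 1515. Its difference was -0.90 ± 0.18 (adjusted p = 0.0122), on a DBA change of -0.44 (adjusted p = 0.0576) and a rise of 0.46 elsewhere (adjusted p = 0.000269). It passed against SJL (-1.05, adjusted p = 0.026) and SMJ (-1.20, adjusted p = 0.0093) and was -0.46 against C57 (adjusted p = 0.32). Another, dimmer probe set gave -0.24 ± 0.46, and the call was lost without DBA113 or DBA169, with a highest adjusted p of 0.0636.

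**Figure D4:**
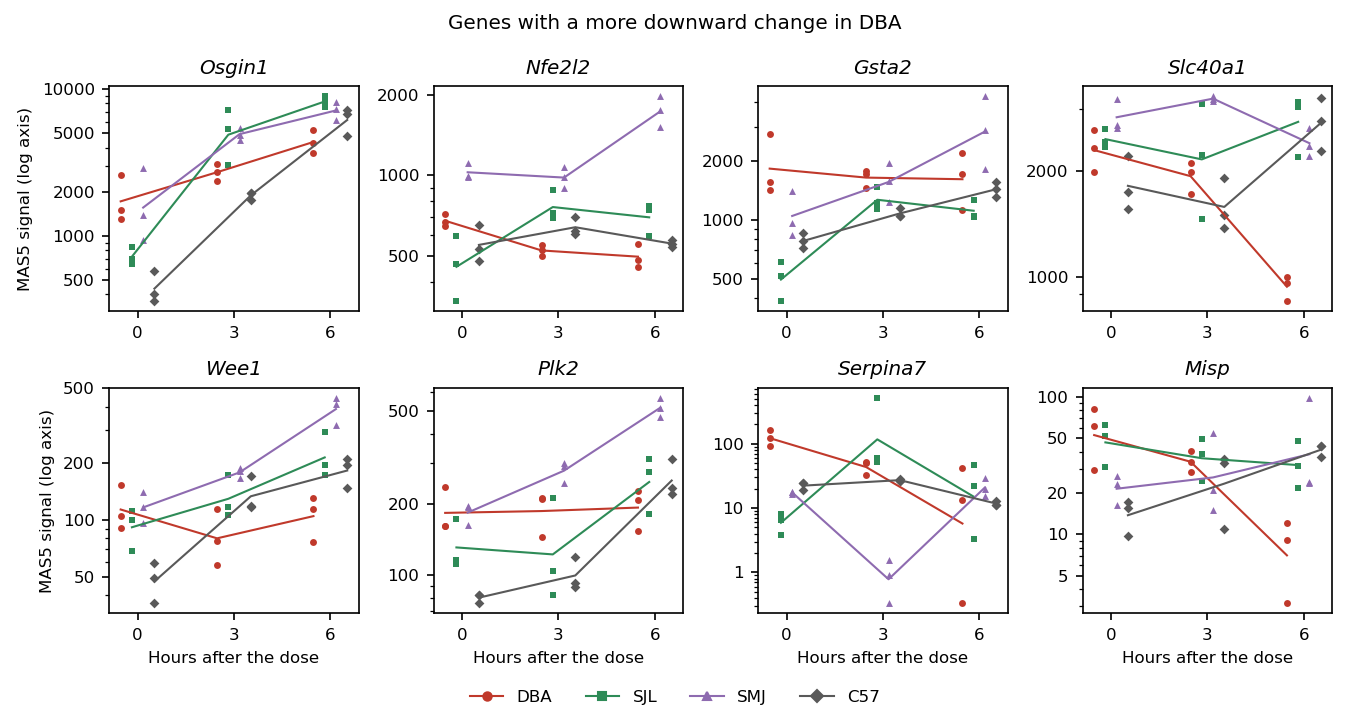
MAS5 signal by mouse (points, log axis) at 0 h, 3 h and 6 h for 8 genes with a more downward change in DBA; lines join the geometric mean of the 3 mice of each strain. In Slc40a1, Wee1 and Misp the DBA mice lie below the other strains at 6 h, in Osgin1, Wee1 and Plk2 the other strains climb while DBA climbs less or stays level, and Gsta2 and Serpina7 begin highest in DBA.

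Slc40a1, which encodes ferroportin, the exporter that releases iron from cells, was low in DBA at 6 h. It read 2332, 1988 and 2614 at 0 h and 967, 1005 and 857 at 6 h. The other 9 mice ran from 1561 to 3211 with a median of 2429 at 0 h, and from 2199 to 3227 with a median of 2650 at 6 h. DBA lay inside that range before the dose and below all of it at 6 h. On the log2 scale Slc40a1 fell by 1.29 in DBA (adjusted p = 5.56e-05), the mean change elsewhere was 0.17 (adjusted p = 0.30), and the difference was -1.45 ± 0.23 (adjusted p = 0.00101), with -1.69 ± 0.30 on another probe set. At 3 h the same difference was -0.17 (adjusted p = 0.93). Slc40a1 was the 1 gene called among 18 of heme, iron and metallothionein; Hamp, the hormone hepcidin that removes ferroportin from the cell surface, had a difference of -1.75 ± 0.83 (adjusted p = 0.497). Bmp2, a ligand that raises hepcidin, differed by -0.83 ± 0.20 (adjusted p = 0.0467), with all 3 DBA mice below the other 9 at 6 h, a call kept in 3 of the 24 fits without 1 array.

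Some of the called genes that act in cell division went in different directions. Wee1, Plk2, Ska2 and Misp, which is described below, were more downward in DBA. Cenpu, a centromere protein, was more upward at 2.42 ± 0.57 (adjusted p = 0.0401), kept in 8 of the 24 fits without 1 array. These genes were grouped after their values were seen. Wee1, the kinase that holds back entry into mitosis, had a mean signal of 116 ± 32.9 (SD, n = 3) in DBA at 0 h and 108 ± 27.9 (SD, n = 3) at 6 h, while the others spanned 36.4 to 141 and then 148 to 444, so that all 3 DBA mice were the lowest at 6 h. The DBA change was -0.11 (adjusted p = 0.85) and the other strains rose by 1.6 (adjusted p = 1.59e-08), so the difference was -1.71 ± 0.31 (adjusted p = 0.00602); another probe set gave -0.90 ± 0.48, and the call was lost without DBA115 (-1.5, adjusted p = 0.0516). Plk2, a polo-like kinase and p53 target, stayed at 154 to 228 in DBA at 6 h while the others reached a median of 311 and a highest of 568, a difference of -1.26 ± 0.30 (adjusted p = 0.042) kept in 5 of the 24 fits without 1 array. Ska2, a part of the kinetochore complex, fell by 1.48 in DBA (adjusted p = 0.0162) and differed by -2.03 ± 0.47 (adjusted p = 0.0401), kept in 11 of 24. Across 17 genes of the cell cycle and regeneration none was called, 4 had a positive difference and the median was -0.30, against -0.05 over all genes.

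Among the 21 called genes, the 3 largest downward differences were in genes with low signals. Serpina7, which encodes thyroxine-binding globulin, read 162, 123 and 91.0 in DBA at 0 h, above the 3.84 to 24.2 of the other strains. It read 13.4, 0.337 and 41.6 at 6 h, within their 3.27 to 46.6. The difference of -3.45 ± 0.83 (adjusted p = 0.0485) leant on the lowest array, being -2.42 without DBA168 (adjusted p = 0.265), and held in 2 of the 24 fits without 1 array. Pglyrp1, a peptidoglycan-binding protein of neutrophil granules, read 146, 15.8 and 32.3 in DBA at 0 h and 10.4, 5.71 and 8.84 at 6 h, while the others spanned 3.49 to 25.4 and 5.14 to 86.8. It fell in DBA (-2.07, adjusted p = 0.0441) and rose elsewhere (1.29, adjusted p = 0.0148), differed by -3.37 ± 0.78 (adjusted p = 0.0401), and was -2.52 without DBA113 (adjusted p = 0.243), the call holding in 7 of 24. Misp, an actin-binding protein that positions the mitotic spindle, read 81.9, 29.5 and 61.2 at 0 h and 9.06, 3.17 and 12.1 at 6 h in DBA, where all 3 mice lay below the 21.8 to 98.4 of the others. It differed by -3.02 ± 0.57 (adjusted p = 0.0102), and lost its call without DBA113 (-2.72, adjusted p = 0.0636) or DBA168 (-2.63, adjusted p = 0.0557).

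The 35 gene lists held 641 genes, of which 568 were tested. Of these, 15 were more upward in DBA (2.64%, against 0.548% of all genes) and 5 more downward (0.88%, against 0.149%). The lists were chosen with earlier results of these data known, so these shares are a description. In 21 lists no gene was called. Apart from the lists of fewer than 10 genes, medians ran from -0.38 for NRF2 targets to 0.35 for immediate early genes. Genes of acetaminophen bioactivation and conjugation gave no call among 11 tested, with a median of -0.04. Cyp2e1, the chief enzyme that forms the reactive metabolite, had a difference of 0.12 ± 0.25 (adjusted p = 0.933). Interferon-stimulated genes gave none of 22 and a median of -0.07 although DBA stood above the other strains by a median of 1.54 at 0 h and 1.53 at 6 h, so a standing difference in level went with no call for the change.

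**Figure D5:**
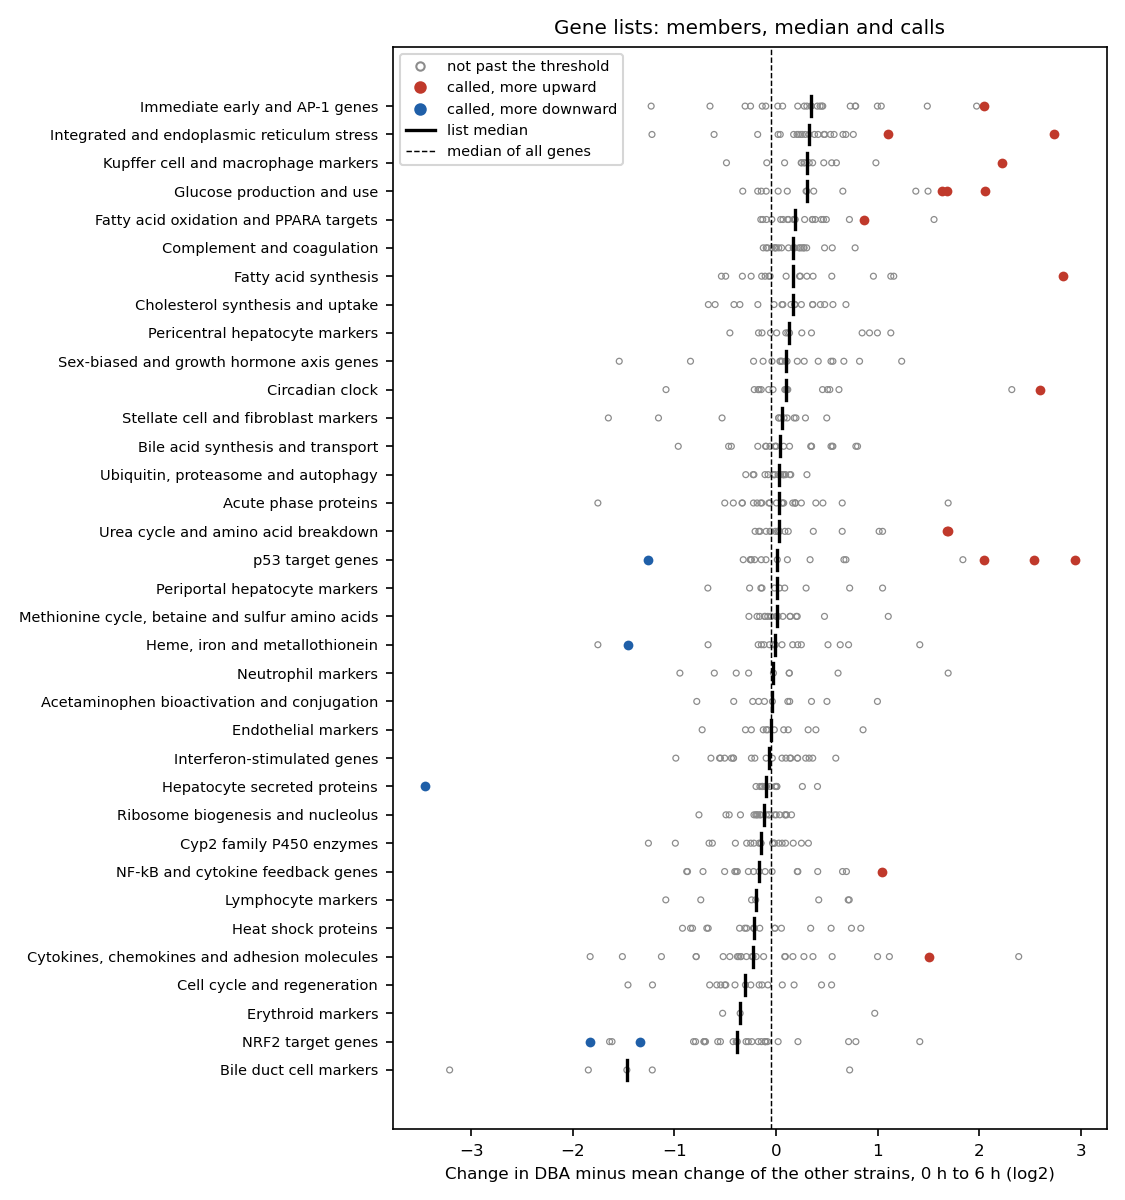
Difference between the change in DBA and the mean change of the other strains (log2, horizontal) for each tested member of 35 gene lists, ordered by list median (black bars). Filled points are called genes; most lists centre near the dashed median of all genes, -0.05, and NRF2 targets, with called members Osgin1 and Gsta2, lie to its left.

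Each strain on its own gave a different number of calls. The DBA change differed from that of SJL in 22 genes upward and 13 downward (0.157% and 0.0925%), from that of SMJ in 47 and 42 (0.334% and 0.299%), and from that of C57 in 188 and 96 (1.34% and 0.683%). Of the 77 genes, 19 also passed against SJL alone, 28 against SMJ and 60 against C57, and 32 passed against C57 and no other strain. These 3 comparisons share the DBA arrays. All 3 were passed by 5 of the 77, among them Lpin1, Tmc7, Tat and Klf3, and by none of the 21. Over all genes SJL rose in 3.66% and fell in 3.32%, SMJ in 8.79% and 12.6%, and C57 in 4.4% and 5.85%. With C57 left out of the reference the counts were 31 and 14, and 29 of the 31 were among the 77. Of the genes named by rule, Ppargc1a, Got1, Angptl4, Cdkn1a, Ddit4, Per1, Cd14, Vcam1, Cebpb, Gprc5a, Cd37, Cenpu, Rab30, Osgin1, Plk2, Ska2, Bmp2, Misp, Sipa1l3 and Zbtb45 lost their calls against SJL and SMJ alone. The median change of the 77 genes from 0 h to 6 h was 1.54 in DBA, 0.28 in SJL, 0.33 in SMJ and -0.08 in C57.

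At 3 h, with the same 0 h mice as the base, the DBA change differed from the mean of the others in 41 genes upward (0.292%) and 3 downward (0.0213%). All 77 genes had a positive difference at 3 h too, with a median of 0.86, and 25 passed. All 3 DBA mice were above the other 9 at 3 h in 10 of the 77 (3.01% of all genes) and below them in 5 (3.42%). Over all genes DBA rose in 1.05% and fell in 0.398% at 3 h, and the mean of the others in 2.65% and 2.62%. Of the 21, 20 had a negative difference at 3 h, and 1 passed. Since both times are set against the same undosed mice, their likeness is not separate evidence. Ddit4, at 3.40 (adjusted p = 0.0029), Klf3, at 1.65 (adjusted p = 5.5e-05), and Ifrd1, at 1.92 (adjusted p = 5.5e-05), had differences at 3 h of about the 6 h size or above. Cd14, at 0.78 (adjusted p = 0.80), and Slc40a1 had not passed by then.

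Some properties of the samples moved with the comparison. Arrays of the same group correlated at 0.916 to 0.964 across genes, and those of DBA at 0 h and 6 h at 0.945 to 0.96. The mean ratio of 3′ to 5′ probe sets for beta-actin, a sign of RNA length, went from 1.77 to 1.44 in DBA, from 1.71 to 1.45 in SJL, from 1.57 to 1.35 in SMJ and from 1.64 to 1.67 in C57; its part in the results was not tested. Hepatocyte identity was plain, with Alb at a mean of 15451 in DBA at 0 h and 19037 at 6 h. The summed signal of 14 pericentral markers ranged over 48144 to 55057 in DBA at 0 h and 37160 to 41271 at 6 h. The same ranges were 46994 to 53747 and 37763 to 44580 in SJL, 37844 to 40216 and 32482 to 38433 in SMJ, and 36260 to 45216 and 12308 to 21300 in C57. C57 was thus the strain that stood apart at 6 h. In this list 6 genes fell in DBA (7.75% of all genes tested) and 12 in the mean of the other strains (15.9% of all genes). None was called for the difference, and the median was 0.12. Neutrophil markers summed to 289 to 849 in DBA at 0 h and 1529 to 2305 at 6 h, and gave no call among 9 tested. Their sums were 863 to 1587 and 1667 to 8064 in SJL, 471 to 4102 and 5902 to 11022 in SMJ, and 400 to 2181 and 1154 to 1415 in C57. Lcn2 alone had a mean of 201 at 0 h and 1132 at 6 h in DBA, within mean sums of 476 and 1969. Of 5 bile duct markers none was called, with a median of -1.47, and their sum ranged from 220 to 698 in the undosed DBA mice and from 358 to 404 at 6 h.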

How the data were processed

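Liver RNA of 36 mice was measured on 1-colour Affymetrix arrays. The deposited values are MAS5 signal intensity on a linear scale, which the authors had scaled so that the trimmed mean of each array is 150, as the files show. Values were turned into log2(signal + 2.77), the offset being the 10th percentile of all signals; it shrinks the changes of dim genes. Each gene took its value from its brightest probe set by mean log2 signal. Probe sets with the suffix _x_at, a mark of possible binding to other transcripts, were passed over where the gene had another. A gene entered the test if at least 3 arrays exceeded the median signal of 30.8, as 14057 of 18193 genes did. Group means of the 12 groups were fitted with limma 3.58.1 in R 4.3.3 over all 36 arrays, and p-values were adjusted by Benjamini-Hochberg over all genes tested. Of 45101 probe sets, 34945 had 1 gene symbol, 932 several and 9160 none, and 64 were controls; only the first kind was named. Arrays of a group were treated as separate mice.

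The genes named were the 12 largest differences each way with a DBA change outside the range of the others, up to 3 called members of each list or its 1 member with the smallest p, the 3 largest each way with opposite changes, the 3 largest each way called against every strain, and 8 preset genes; others are marked as chosen after their values were seen. The comparison, members and lists were chosen with earlier results of these data known. Alternatives changed the scaling, offset, filter, probe-set rule, variance model, arrays fitted and reference strains, or left out 1 array. Passing over probe sets with the suffix _s_at as well, which can bind related transcripts, was added after seeing the data. The scripts were tested on simulated data.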

Additional observations from a re-analysis of the deposited data

Results flagged for a closer look

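The change from 0 h to 6 h differed between DBA and the mean of the other strains, by the test of that difference (limma, adjusted p under 0.05), in 35 of the 62 genes named by rule. Values are log2 differences. Among genes tied to metabolism they were 2.83 for Lpin1, 2.05 for Igfbp1, 1.69 for Got1, 1.68 for Tat, 1.63 for Ppargc1a and 0.87 for Angptl4. Among genes of growth arrest, stress and the clock they were 2.93 for Cdkn1a, 2.73 for Ddit4, 2.62 for Cdkn1c, 2.59 for Per1, 2.54 for Trp53inp1, 2.04 for Btg2 and 1.10 for Herpud1. Among genes tied to immunity and inflammation, in whatever cells, they were 2.79 for Cd37, 2.22 for Cd14, 1.51 for Vcam1 and 1.05 for Cebpb. The other upward ones were 2.61 for Gprc5a, 2.42 for Cenpu, 2.31 for C9orf72, 2.22 for Rab30 and 2.15 for Tmc7.

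The downward differences were -3.45 for Serpina7, -3.37 for Pglyrp1, -3.02 for Misp, -2.24 for Zbtb45, -2.03 for Ska2, -1.83 for Osgin1, -1.71 for Wee1, -1.46 for Sipa1l3, -1.45 for Slc40a1, -1.34 for Gsta2, -1.27 for Cpeb1, -1.26 for Plk2 and -0.83 for Bmp2. Cd37, a tetraspanin of leukocytes, had DBA signals of 7.81, 9.51 and 9.46 at 0 h and 56.2, 62.6 and 70.5 at 6 h. Its call was lost without DBA113, DBA115, DBA168 or DBA169 (adjusted p from 0.0567 to 0.0826) and against SJL and SMJ (0.0639). With 1 array left out, Cenpu kept its call in 8 of 24 fits, Rab30 in 15, Sipa1l3 in 20 and Cpeb1 in 7, with highest adjusted p values of 0.236, 0.139, 0.153 and 0.146. Zbtb45 lost its call without DBA115 (-2.05, adjusted p = 0.102) or DBA166 (-1.70, adjusted p = 0.0809), with the 24 arrays alone (0.0822) and against SJL and SMJ (0.0675).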

How the results depend on the processing

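Against 77 genes upward and 21 downward, the upward count was 48 with no filter, 42 with the 24 arrays alone and 31 against SJL and SMJ. The downward count was 12 with quantile normalization, 12 with 75th percentile scaling, 13 with no filter, 11 with the 24 arrays alone, 55 with array weights and 32 with every probe set kept apart. The downward count against SJL alone was 5 with the 24 arrays, in place of 13. The upward share of calls, 78.6%, was 89.1% with 75th percentile scaling (98 and 12), 87.1% with quantile normalization (81 and 12), 68.9% against SJL and SMJ (31 and 14) and 66.7% with array weights (110 and 55). Leaving out 1 array gave 22 to 88 upward and 5 to 34 downward. The counts were 66 and 34 without DBA166, 49 and 15 without SJL2, 47 and 11 without SMJ57, and 49 and 11 without C57236; the downward count alone was 13 without SJL44, SJL45, SMJ101, SMJ103 or C57180, 11 without SMJ58 and 10 without C57182.

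No called gene changed sign, and 14 of 98 kept their call throughout. Among genes not called, Alb became 0.069 against SJL and C57, Cyp2e1 -0.32 against SJL and SMJ, Hspa1a 1.12 against SMJ and C57, and Slc1a2 -0.16 against SJL and C57 and -0.49 against SJL and SMJ. With 1 array left out, Cyp2e1 ran from -0.0021 to 0.22, Hspa1a from -0.85 to 0.40 and Slc1a2 from -0.91 to 0.86. The cause of these moves was not tested. Dim genes, such as Serpina7 and Pglyrp1, have the least certain values. No paired analysis was possible because the mouse numbers differ between groups and mark different animals.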
